A study of Mus musculus with 14 samples.

Results

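Integrins are adhesion receptors made of an alpha and a beta chain, and the pairing of chains decides which ligand a cell can hold. The members described here were 10 integrin chains of lymphocytes: Itgal, Itgam and Itgax, whose products pair with that of Itgb2; Itga1, Itga2 and Itga4, whose products pair with that of Itgb1; and Itgae, whose product pairs with that of Itgb7. They were chosen by symbol, as the rows of the count table whose Ensembl identifier maps to those names, from 46078 genes in all. All 10 passed the filter on low counts, which left 26990 genes to test.

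The libraries were bulk RNA-seq of 2000 lymphocytes each, sorted from the bone marrow of C57BL/6 mice aged 8 weeks. There were 4 groups: immature type 1 innate lymphoid cells (iILC1) of mice with a Vav-Cre transgene (cKO iILC1, n = 4), iILC1 of mice without it (control iILC1, n = 3), immature natural killer (NK) cells of Vav-Cre mice (cKO iNK, n = 4) and immature NK cells of mice without it (control iNK, n = 3). Every mouse, controls included, had 1 knockout allele and 1 floxed allele of Il15, the gene of interleukin 15, and Vav-Cre deletes floxed DNA in blood-forming cells and their progeny, so the genotype comparison asks how these cells differ when the remaining allele is deleted in blood cells. All cells were gated as NK1.1 positive and CD3 negative. The iILC1 gate also required IL-7Ra and CD49a, while the iNK gate required DX5 and CD27 and left out cells with IL-7Ra or CD11b. CD49a, CD49b (the target of the DX5 antibody) and CD11b are the products of Itga1, Itga2 and Itgam, so these 3 chains were part of the gates and their difference between cell types is given only as a description. Whether each sample is a separate mouse is not stated in the labels, and p-values therefore cover only the spread between samples, which may be technical.

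The integrin LFA-1, made of the Itgal and Itgb2 products, binds ICAM ligands and holds a killer lymphocyte to its target. The CD11b chain, encoded by Itgam, marks later stages of mouse NK cell maturation and is abundant on myeloid cells, and the CD11c chain, encoded by Itgax, is best known from dendritic cells but is also carried by NK cells. Integrins of the Itga4 chain bind VCAM-1 with the Itgb1 chain, or the gut vessel ligand MAdCAM-1 with the Itgb7 chain, and CD49a and CD49b integrins bind collagen. The chain encoded by Itgae binds E-cadherin of epithelia.

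Promoter sequences are shown for Itgam, the chain called by genotype, and for the 2 chains outside the sort gates, Itgax and Itgb7, that were called between cell types with no overlap between libraries. Each is the RefSeq window of GRCm38.p6 (the mm10 assembly) from 250 bases before to 50 bases after the gene's start, 5′ to 3′ on the gene's strand. Capitals mark matches, on either strand, to GAGGAA, a longer form of the ETS factor core GGAA, or to TGTGGT, the core letters of RUNX motifs. GGAA outside GAGGAA was not marked or counted. An ETS match on the other strand reads TTCCTC. Itgam is at chr7:128062390-128062689, plus strand, Itgax at chr7:128129300-128129599, plus strand, and Itgb7 at chr15:102231886-102232185, minus strand.
Itgam: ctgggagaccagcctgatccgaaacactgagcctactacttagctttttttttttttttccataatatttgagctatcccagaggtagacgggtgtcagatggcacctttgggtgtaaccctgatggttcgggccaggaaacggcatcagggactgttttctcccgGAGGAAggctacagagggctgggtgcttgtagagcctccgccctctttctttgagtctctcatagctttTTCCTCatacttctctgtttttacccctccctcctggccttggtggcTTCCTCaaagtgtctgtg
Itgax: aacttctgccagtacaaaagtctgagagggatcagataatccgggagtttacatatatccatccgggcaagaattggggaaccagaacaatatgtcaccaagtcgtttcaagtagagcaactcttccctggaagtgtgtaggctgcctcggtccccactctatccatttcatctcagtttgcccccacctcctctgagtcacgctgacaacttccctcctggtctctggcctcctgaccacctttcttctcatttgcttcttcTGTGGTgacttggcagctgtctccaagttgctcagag
Itgb7: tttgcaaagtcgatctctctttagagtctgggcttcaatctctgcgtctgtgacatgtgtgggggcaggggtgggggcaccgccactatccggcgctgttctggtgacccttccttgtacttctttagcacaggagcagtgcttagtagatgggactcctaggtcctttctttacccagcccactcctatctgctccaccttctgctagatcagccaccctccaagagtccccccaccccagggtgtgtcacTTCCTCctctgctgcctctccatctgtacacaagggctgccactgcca
The Itgam window held 3 matches to GAGGAA, the Itgb7 window held 1, and the Itgax window held 1 match to the RUNX letters. None of these windows held both GAGGAA and the RUNX letters, and none held the T-box letters TCACACC on either strand. Over 32851 promoter windows of the same length, 28.3% held GAGGAA, 16.8% the RUNX letters and 3.98% the T-box letters. A window was found for 7 of the 10 chains, and a match is a description of the letters only.

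Total counts ran from 3512796 to 12572326 per library, lowest in control iILC1 (3512796 to 4933284), and levels are given as CPM, counts scaled to library size with TMM factors. Klrb1c, which encodes NK1.1, averaged 1734 and 1297 CPM in cKO and control iILC1 and 1814 and 1836 CPM in cKO and control iNK. Il7r averaged 646 and 408 CPM in cKO and control iILC1 against 22.35 and 8.37 CPM in cKO and control iNK. Cd27 differed less, at 123 and 115 CPM in cKO and control iILC1 and 189 and 150 CPM in cKO and control iNK. Cells were gated as CD3 negative, yet Cd3e, which encodes a CD3 chain, averaged 27.5 and 64.0 CPM in cKO and control iILC1. It averaged 3.66 and 3.31 CPM in cKO and control iNK. Receptor genes of smell and pheromone sensing, which lymphocytes should not use, summed to between 1475 and 3229 CPM, as a measure of background reads. Within control iNK, replicate 3 had the most of this background (2634 CPM, against 1475 and 1701 CPM in replicates 1 and 2), and it had the lowest level of 8 of the 10 chains in that group. No marker of the 7 lists of other bone marrow cells was at 0 in all libraries of a group. The smell and pheromone receptor genes also had group medians of 0.753 to 1.23 CPM per kb. A count above 0 therefore does not show that RNA of those cells was present. Summed over a list, these markers reached up to 1082 CPM in a library, for the B lineage list in cKO iNK. Fewer cells of a type and less RNA per cell cannot be told apart in such bulk samples.

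Chains were ranked by CPM per kilobase of exon so that genes could be compared. By this measure the highest 4 were the same in every group. By CPM not divided by length, Itga4 (exon model 13.98 kb) lay above Itgb7 in iNK. The means were 471 against 433 CPM in cKO and 634.5 against 594.1 CPM in control. In cKO iILC1 the order was Itgb2 (359 ± 117 CPM per kb), Itgb7 (335 ± 101), Itgal (245 ± 65.9) and Itgb1 (242 ± 74.0; SD, n = 4), and in control iILC1 it was Itgb2 (339 ± 74.2), Itgb7 (280 ± 63.1), Itgal (210 ± 40.1) and Itgb1 (209 ± 58.45; SD, n = 3). In cKO iNK the order was Itgb1 (498 ± 107.5 CPM per kb), Itgb2 (290 ± 52.0), Itgal (221 ± 52.1) and Itgb7 (158 ± 27.2; SD, n = 4), and in control iNK it was Itgb2 (421 ± 107.5), Itgb1 (388 ± 109), Itgal (279 ± 78.9) and Itgb7 (217 ± 29.5; SD, n = 3). The ranges of neighbours within these 4 overlapped in every group, so ranges over libraries do not resolve the order of neighbours. Some chains further apart did not overlap. In cKO iNK, Itgb1 (341 to 578 CPM per kb) lay above Itgal (165 to 288) and Itgb7 (129.5 to 193). In both iNK groups Itgb1 and Itgb2 lay above Itgb7, and in control iILC1 Itgb2 lay above Itgal. Some neighbours kept 1 order within single libraries. Itgal lay below Itgb2 in each library, at ratios per kb of 0.602 to 0.827. The ratio of Itgb2 to Itgb1 was 0.527 to 0.654 in cKO iNK and 1.065 to 1.13 in control iNK. These ratios were not tested. Per kilobase, a gap followed in every group, since the libraries of the fourth chain and of Itgax, the fifth, did not overlap.

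The other chains had less RNA per kilobase. Itgax averaged 33.5 and 47.9 CPM per kb in cKO and control iILC1 and 99.1 and 103 CPM per kb in cKO and control iNK, and Itga2 averaged 20.7 and 20.8 CPM per kb in cKO and control iILC1 and 48.3 and 52.8 CPM per kb in cKO and control iNK. Itga4 lay between 18.7 and 45.4 CPM per kb in its 4 group means, with the limit that its exon model spans 13.98 kb and shares 1124 bases with Cerkl on the other strand. Cerkl had 1192 counts over all 14 libraries, against at least 1319 counts of Itga4 in each library, and the counting is not stated to use strand.

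The lowest chains, Itgae in every group, Itga1 in iNK and Itgam in cKO iILC1, were near or below the upper level of genes that lymphocytes should not express. Itgae, the chain of the E-cadherin receptor of tissue-resident lymphocytes, averaged 5.10 and 5.32 CPM per kb in cKO and control iILC1 and 5.46 and 4.76 CPM per kb in cKO and control iNK. The 95th percentile of 1465 smell and pheromone receptor genes was 5.02, 4.85, 4.61 and 3.64 CPM per kb in cKO iILC1, control iILC1, cKO iNK and control iNK. Itga1 averaged 1.88 and 2.01 CPM per kb in cKO and control iNK, below those percentiles, and 10.2 and 10.5 CPM per kb in cKO and control iILC1, above them. Itgam averaged 5.535 CPM per kb in cKO iILC1, close to the percentile there, and 14.8 CPM per kb in control iILC1, 9.41 CPM per kb in cKO iNK and 18.7 CPM per kb in control iNK.

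**Figure D1:**
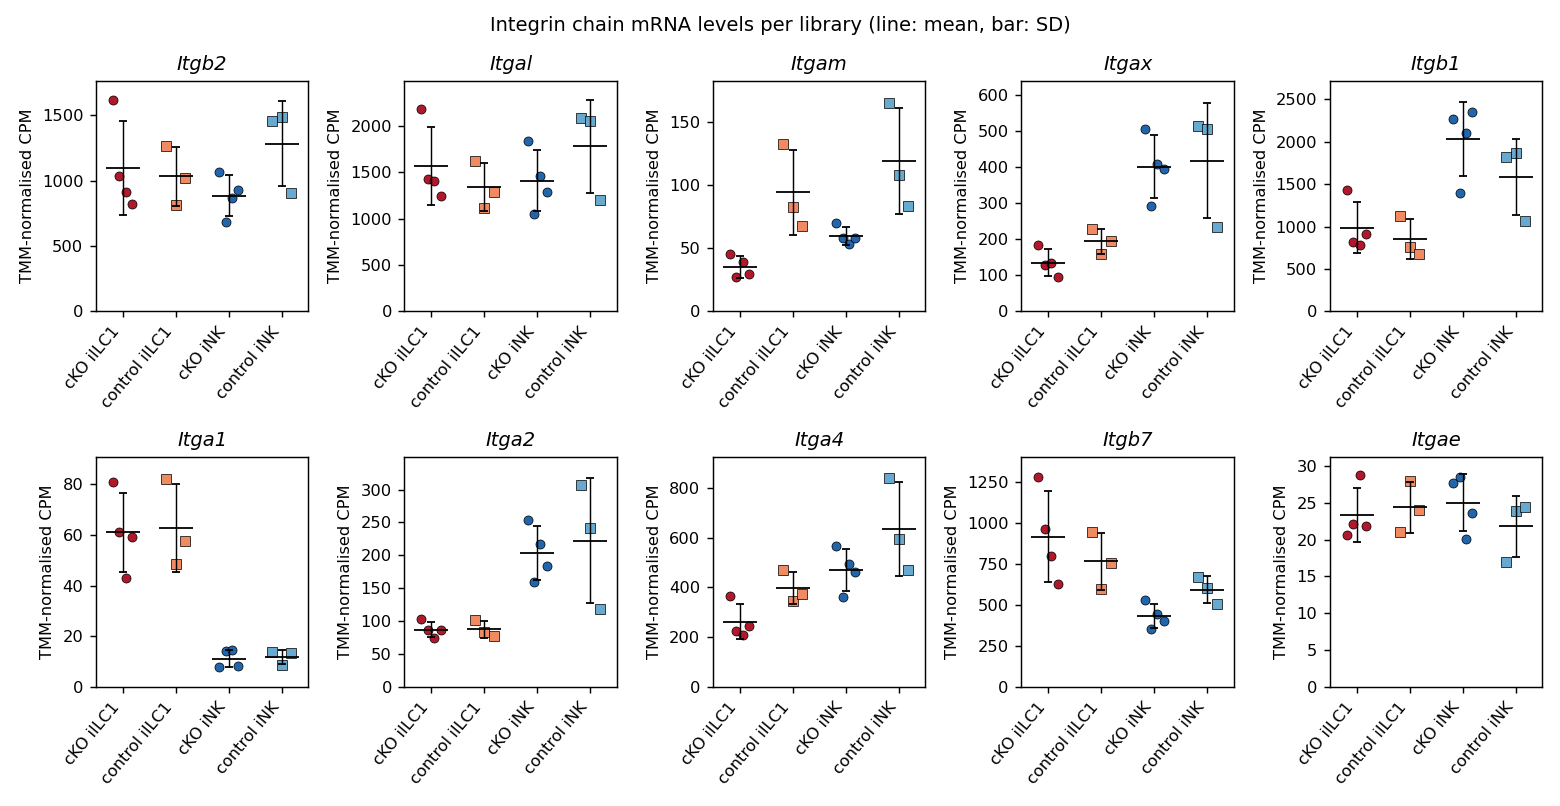
TMM-normalised CPM (y axis, linear, from 0) of the 10 integrin chains, 1 panel a chain, in cKO iILC1 (n = 4), control iILC1 (n = 3), cKO iNK (n = 4) and control iNK (n = 3); points are libraries, lines are means and bars are SD. Itgam was lower in every cKO library than in every control library of the same cell type, and Itgax was lower in every iILC1 library than in every iNK library.

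Itgam RNA was lower in cKO iILC1 than in control iILC1. The 4 cKO libraries had 45.8, 27.1, 39.0 and 29.4 CPM, and the 3 control libraries had 132.5, 82.9 and 67.6 CPM. Every cKO library was below every control library, and control replicate 1 stood highest. The means were 35.3 ± 8.69 CPM (SD, n = 4) in cKO and 94.3 ± 33.9 CPM (SD, n = 3) in control, a log2 fold change of −1.41 (SE 0.249, 95% interval −1.92 to −0.91), and edgeR's quasi-likelihood test gave an adjusted p = 0.00898. Without control iILC1 replicate 1 the log2 fold change was −1.08 with an adjusted p = 0.198, so the call rests on that library; it held when any of the other 6 libraries was left out and under all 10 other settings.

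Itgam was the only one of the 10 chains called in iILC1 by genotype, in either direction, at an adjusted p below 0.05. Of all 26990 genes tested, 0.0482% were called in this comparison and 0.0259% were called lower, and 2.82% had every cKO library below every control library. At an unadjusted p below 0.05, 2 chains passed, Itgam and Itga4, as did 4.46% of all genes. The other 9 chains had estimates from −0.60 (Itga4) to 0.26 (Itgb7), and the 10 had a median log2 fold change of −0.02, against 0.01 over all genes. With the background reads as a covariate, Itgax was also called, at −0.71 (adjusted p = 0.0453), as was Itga4.

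In iNK cells Itgam had a lower level in every cKO library too, without passing the test. It had 70.4, 58.0, 53.7 and 58.0 CPM in the 4 cKO libraries, and 165, 108 and 83.65 CPM in the 3 control libraries. The groups did not overlap, and the control libraries differed from each other more than the cKO libraries did. Means were 60.0 ± 7.20 CPM (SD, n = 4) in cKO and 119 ± 41.96 CPM (SD, n = 3) in control, with a log2 fold change of −0.99 (SE 0.244, 95% interval −1.49 to −0.49, adjusted p = 0.0646 with edgeR). The call depended on the setting: 7 of 10 other settings called it, with adjusted p = 0.00587 in a fit of the 2 groups only and 0.31 without control iNK replicate 1 and cKO iILC1 replicate 1, the 2 libraries lowest on the first principal component. Without control iNK replicate 1 the log2 fold change was −0.66 (adjusted p = 0.723). These cells had been gated as CD11b negative in both genotypes, so the comparison is between cells chosen to lack the protein.

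No chain was called in iNK cells by genotype with edgeR, where 0.408% of all genes were called. At an unadjusted p below 0.05 Itgam alone passed, as did 7.93% of all genes. DESeq2 called Itgam, and 294 of the 13907 genes to which it gave an adjusted p. Among the 10 chains, Itgam alone had every cKO library below every control library, which 4.75% of all genes did. The other estimates ran from −0.54 (Itgb2) to 0.36 (Itgb1), with a median of −0.23 over the 10 chains and 0.06 over all genes. With the background reads as a covariate, Itgb1 was 0.62 and was called higher (adjusted p = 0.00997). The difference between the Itgam effects in iILC1 and iNK, tested as an interaction, was −0.42 on the log2 scale (SE 0.350, 95% interval −1.14 to 0.29, adjusted p = 0.758), so the effect was not shown to differ between the cell types. Both genotype comparisons have their own control libraries, and these were fitted together.

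**Figure D2:**
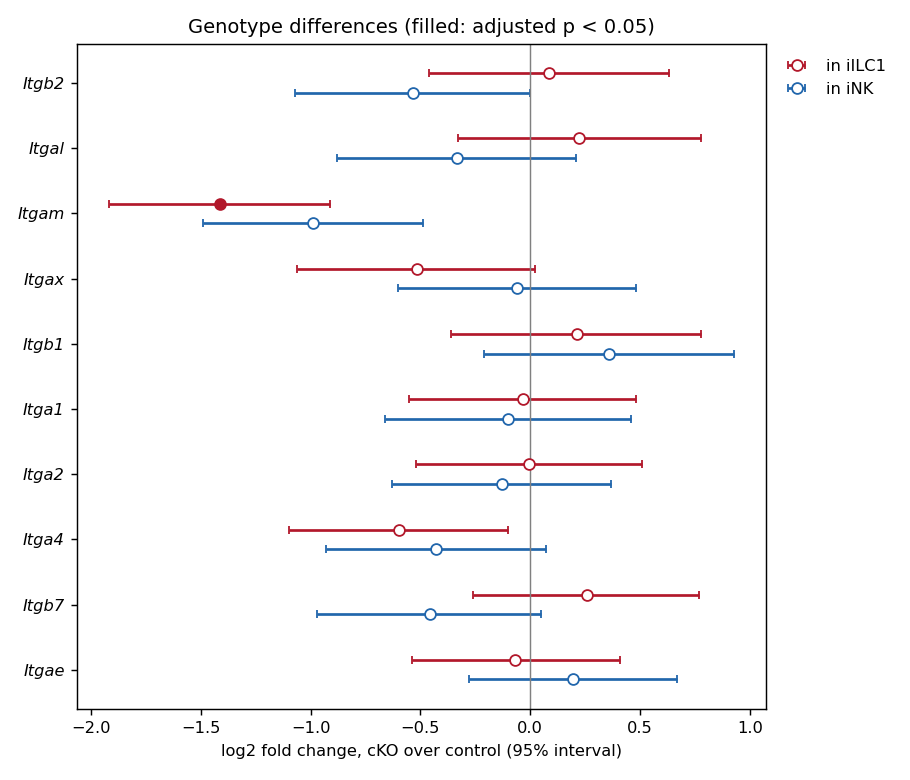
Log2 fold change of each integrin chain, cKO over control (x axis), in iILC1 and in iNK cells, with bars for the 95% interval from edgeR; a filled point has an adjusted p below 0.05. Itgam in iILC1, at −1.41, is the single filled point, and Itgam in iNK lies at −0.99 with an interval that stays below 0.

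Myeloid cells carry CD11b, so their markers are given beside the Itgam result. The 15 neutrophil and monocyte markers summed to 118 to 404 CPM in cKO iILC1 against 105.5 to 131 CPM in control iILC1, with overlap. Of the 15, 9 had an estimate above 0 and 6 below 0 in iILC1, and 5 above and 10 below in iNK. In iNK cells the sums were 55.6 to 493.5 CPM in cKO and 139.9 to 397.5 CPM in control, with overlap. None of these 15 markers was called by genotype with edgeR in iNK or iILC1 (1 at an unadjusted p below 0.05 in each, 0 by DESeq2). Unadjusted, 7.93% of all genes passed in iNK and 4.46% in iILC1. The part of these markers in the Itgam result was not tested.

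Other lists showed where Itgam stood among genes of NK maturation. Of 19 listed genes, 1 was called in each genotype comparison, and it was Gzmb, the gene of the granule protease granzyme B. It averaged 19.25 ± 3.79 CPM in cKO iILC1 (SD, n = 4) and 50.9 ± 12.9 CPM in control iILC1 (SD, n = 3), a log2 fold change of −1.41 (adjusted p = 0.00556, SE 0.235, edgeR). In iNK it averaged 21.5 ± 5.69 CPM in cKO (SD, n = 4) and 135 ± 20.2 CPM in control (SD, n = 3), a log2 fold change of −2.65 (adjusted p = 1.38e-08, SE 0.234). The remaining 18 did not pass in either comparison with edgeR. At an unadjusted p below 0.05, 3 of the 19 passed in iILC1 and 7 of the 19 in iNK, against 4.46% and 7.93% of all genes. The shares of all genes called by edgeR were 0.0482% in iILC1 and 0.408% in iNK. DESeq2 called Gzmb in iILC1 and Gzmb, Cma1 and Klrg1 in iNK. Over all genes given an adjusted p, it called 46 of 10768 in iILC1 and 294 of 13907 in iNK. The median over the list was 0.09 in iILC1 and −0.29 in iNK, against 0.01 and 0.06 over all genes.

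Across the 14 libraries, the genes whose centred log2 CPM was most like that of Itgam, by root mean square difference, were Fcgr2b (0.308), Sgk1 (0.328) and Itga4 (0.401), against an SD of 0.757 of Itgam itself. Fcgr2b, an inhibitory Fc receptor, averaged 9.9 and 19.4 CPM in cKO and control iILC1 and 19.6 and 27.9 CPM in cKO and control iNK. Sgk1, a kinase, averaged 34.7 and 63.6 CPM in cKO and control iILC1 and 48.6 and 93.2 CPM in cKO and control iNK. The same 14 libraries carry both the genotype and the depth differences, so likeness over them is a description.

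Itga4, the alpha chain that pairs with the Itgb1 or the Itgb7 chain, had 364, 226, 210 and 247 CPM in cKO iILC1 and 470, 346 and 373 CPM in control iILC1. Replicate 1 of cKO iILC1 lay within the range of the control libraries, and the other cKO libraries lay below it. The log2 fold change was −0.60 (SE 0.246, 95% interval −1.10 to −0.10), with an adjusted p = 0.982 by edgeR. In iNK cells it had 567, 363, 494 and 460 CPM in cKO and 840, 592 and 471.5 CPM in control, a log2 fold change of −0.43 (adjusted p = 0.702, SE 0.245, edgeR). In neither cell type did it pass, and with the background reads as a covariate it did in iILC1, at −0.77 (adjusted p = 0.00253).

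The chains of LFA-1 were not called by genotype. Itgal averaged 1565 ± 420 CPM in cKO iILC1 (SD, n = 4) and 1340 ± 256 CPM in control iILC1 (SD, n = 3), with an interval of −0.33 to 0.78 for the log2 fold change. In iNK it averaged 1409 ± 332 CPM in cKO (SD, n = 4) and 1777 ± 503.5 CPM in control (SD, n = 3), with an interval of −0.88 to 0.21. Its partner Itgb2 averaged 1096 ± 357 CPM in cKO iILC1 and 1035 ± 226.5 CPM in control iILC1, and 886 ± 159 CPM in cKO iNK and 1284 ± 328 CPM in control iNK, and its log2 fold changes were 0.08 and −0.54 in iILC1 and iNK. The 95% interval for Itgb2 was −0.46 to 0.63 in iILC1 and −1.07 to 0.00 in iNK.

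The collagen receptor chains, both gate genes, were not called by genotype. Itga1 averaged 60.9 ± 15.5 CPM in cKO iILC1 (SD, n = 4) and 62.6 ± 17.3 CPM in control iILC1 (SD, n = 3), with an interval of −0.55 to 0.48 for the log2 fold change. Itga2 averaged 204 ± 40.5 CPM in cKO iNK (SD, n = 4) and 223 ± 95.3 CPM in control iNK (SD, n = 3), with an interval of −0.63 to 0.37. Itgae was at 17.0 to 28.8 CPM in the 14 libraries, and its log2 fold changes were −0.07 in iILC1 and 0.20 in iNK, neither called. As a description of the gates, Itga1 stood at 43.0 to 81.9 CPM in the iILC1 libraries and 7.95 to 14.6 CPM in the iNK libraries, and Itga2 at 73.8 to 103 CPM in iILC1 and 119 to 306 CPM in iNK.

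Between cell types, Itgax was the chain outside the gates that edgeR called in both genotypes; DESeq2 and the replicate block also called Itgb1 and Itga4 in both. In cKO mice it had 184.5, 128, 134 and 95.3 CPM in iILC1 and 507, 292, 408 and 396 CPM in iNK. Every iILC1 library was below every iNK library. The log2 fold change was −1.57 (SE 0.251, 95% interval −2.08 to −1.05, adjusted p = 6.82e-05, edgeR), and it was called in all 8 fits that left out 1 library and under all 10 other settings. In control mice it had 227, 158 and 196 CPM in iILC1 and 515, 506 and 233.5 CPM in iNK, again with no overlap, although iNK replicate 3 came close to the iILC1 libraries. The log2 fold change was −1.11 (SE 0.287, 95% interval −1.70 to −0.53, adjusted p = 0.0217, edgeR), against a median of 0.16 over all genes.

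The control comparison of Itgax held less firmly. It was not called without control iNK replicate 1 (adjusted p = 0.144), control iNK replicate 2 (0.115), control iILC1 replicate 2 (0.167) or control iILC1 replicate 3 (0.0966), nor with the background reads as a covariate, where the log2 fold change was −0.47 (adjusted p = 0.287). Background sums were 2291 to 3229 CPM in control iILC1 and 1475 to 2634 CPM in control iNK, with 1689 to 3131 CPM in cKO iILC1 and 1827 to 2764 CPM in cKO iNK. With that covariate the cKO comparison of Itgax was called. Dendritic cells carry CD11c, and the 10 dendritic markers summed to 131.5 to 145 CPM in cKO iILC1 against 105 to 132 CPM in cKO iNK, and to 133 to 143 CPM in control iILC1 against 82.4 to 114 CPM in control iNK, and their part in the Itgax result was not tested.

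Itgb7, the beta chain of the MAdCAM-1 and E-cadherin receptors, was higher in cKO iILC1 than in cKO iNK. It had 1280, 964, 797 and 630 CPM in cKO iILC1 and 530, 355, 446 and 401 CPM in cKO iNK, and every iILC1 library was above every iNK library. The log2 fold change was 1.08 (SE 0.235, 95% interval 0.61 to 1.56, adjusted p = 0.0036, edgeR), called in all 8 fits that left out 1 library and under all 10 other settings. In control mice it had 946, 600 and 758 CPM in iILC1 and 671, 602 and 509 CPM in iNK, which overlapped, with a log2 fold change of 0.37 (95% interval −0.18 to 0.92, adjusted p = 0.425). With the background reads as a covariate this became 0.78 and was called (adjusted p = 0.00744). The interaction was 0.71 (SE 0.355, 95% interval −0.01 to 1.44, unadjusted p = 0.0534, adjusted p = 0.714, edgeR), so the cell type difference of Itgb7 was not shown to depend on genotype.

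Itgb1, the shared beta chain of the collagen and VCAM-1 receptors, was lower in cKO iILC1 than in cKO iNK. It had 1433, 822, 781 and 910 CPM in cKO iILC1 and 2274, 1392, 2100 and 2357 CPM in cKO iNK. Only the highest iILC1 library reached the lowest iNK library. The log2 fold change was −1.04 (SE 0.260, 95% interval −1.57 to −0.51, adjusted p = 0.0146, edgeR), and it was not called without cKO iNK replicate 1 (adjusted p = 0.054) or cKO iILC1 replicate 3 (0.068). In control mice it had 1122, 761 and 671 CPM in iILC1 and 1817, 1867 and 1070 CPM in iNK, with a log2 fold change of −0.90 (adjusted p = 0.083, SE 0.299). DESeq2 called it (adjusted p = 0.0158), and with the background reads as a covariate it was −0.28 (adjusted p = 0.529).

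Itga4 was also lower in cKO iILC1 than in cKO iNK, although the highest iILC1 library, at 363.6 CPM, reached the lowest iNK library, at 363.3 CPM. The log2 fold change was −0.85 (SE 0.230, 95% interval −1.32 to −0.38, adjusted p = 0.0295, edgeR). It was not called without cKO iNK replicate 1 (adjusted p = 0.134) or replicate 3 (0.09), or without cKO iILC1 replicate 2 (0.0834) or replicate 3 (0.127). In control mice every iILC1 library was below every iNK library, at a log2 fold change of −0.68 (adjusted p = 0.143, SE 0.265). DESeq2 called it (adjusted p = 0.0461), and with the background reads as a covariate it was −0.17 (adjusted p = 0.798).

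Of the 7 chains outside the gates, 4 were called between cell types in cKO mice, 1 higher and 3 lower in iILC1, where 3.41% of all genes were called, 1.75% higher and 1.66% lower. In control mice 1 of the 7 was called, lower in iILC1, where 4.11% of all genes were called and 3.16% were lower. DESeq2 called 3 there (Itga4, Itgax and Itgb1), and 2180 of the 14954 genes to which it gave an adjusted p. Libraries of both cell types did not overlap for 2 of the 7 in cKO mice (6.61% of all genes) and for 2 of the 7 in control mice (25% of all genes). Itgal, Itgb2 and Itgae were not called in either genotype, although with the background reads as a covariate Itgb2 was called higher in cKO iILC1 than in cKO iNK, at 0.44 (adjusted p = 0.0116), against 0.31 without it. The median over the 7 chains was −0.10 in cKO and −0.41 in control, against 0.01 and 0.16 over all genes. For the interaction, edgeR called 0 of 10 chains (0 at an unadjusted p below 0.05, 0 by DESeq2), where 0.0778% of all genes were called and 6.9% passed unadjusted.

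**Figure D3:**
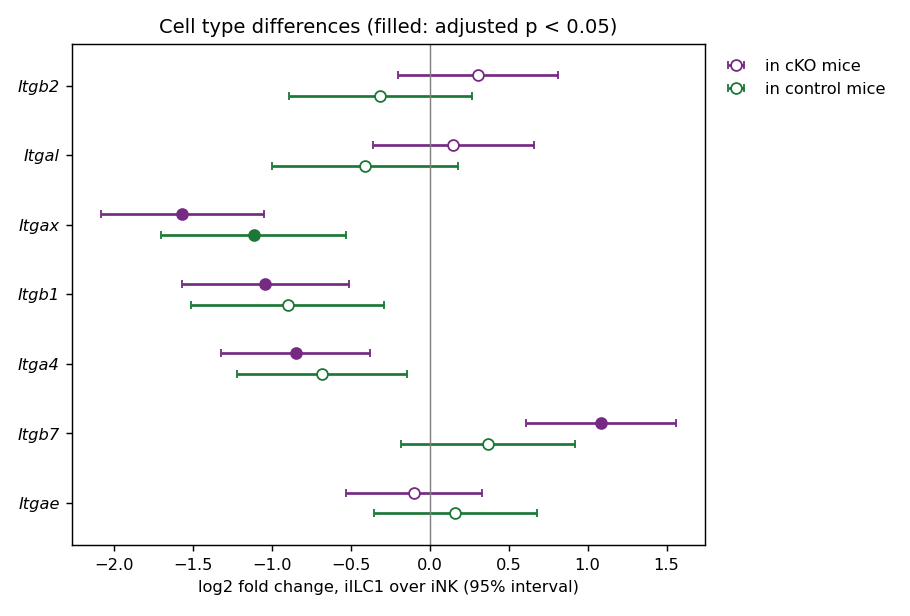
Log2 fold change of the 7 integrin chains outside the sort gates, iILC1 over iNK (x axis), in cKO and in control mice, with bars for the 95% interval from edgeR; a filled point has an adjusted p below 0.05. Itgax is filled and lower in both genotypes, at −1.57 in cKO and −1.11 in control, and Itgb7 is filled in cKO, at 1.08, and open in control, at 0.37.

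Proportions between chains within 1 library do not depend on its scaling, and some of them separated the groups while others overlapped. They were chosen after values were seen and have no test. Of the summed CPM per kb of the alpha chains that pair with Itgb2 (Itgal, Itgam, Itgax and Itgad), Itgal made up 83.6 ± 1.31% in cKO iILC1 (SD, n = 4), 74.4 ± 0.353% in control iILC1 (SD, n = 3), 63.4 ± 1.39% in cKO iNK (SD, n = 4) and 67.6 ± 1.99% in control iNK (SD, n = 3). Per library it was 84.3, 83.6, 81.7 and 84.7% in cKO iILC1 and 74.5, 74.0 and 74.7% in control iILC1, which did not overlap. In iNK it was 64.6, 63.2, 64.4 and 61.6% in cKO and 65.9, 67.2 and 69.8% in control, without overlap and in the opposite direction.

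Itgax, Itgam and Itgad shared the rest. Itgax made up 11.4 ± 0.883% in cKO iILC1 (SD, n = 4), 16.99 ± 0.812% in control iILC1 (SD, n = 3), 28.5 ± 0.986% in cKO iNK (SD, n = 4) and 24.4 ± 2.57% in control iNK (SD, n = 3). Itgam made up 1.91 ± 0.292% in cKO iILC1 (SD, n = 4), 5.18 ± 1.13% in control iILC1 (SD, n = 3), 2.78 ± 0.505% in cKO iNK (SD, n = 4) and 4.55 ± 0.890% in control iNK (SD, n = 3). Itgam had a smaller share than Itgal and Itgax in every group, and its share was lower in every cKO library than in every control library of the same cell type.

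Beta chains also stood in different proportions. The ratio of Itgb7 to Itgb1, both per kb, was 1.33, 1.74, 1.52 and 1.03 in cKO iILC1 and 1.255, 1.17 and 1.68 in control iILC1. It was 0.347, 0.379, 0.316 and 0.253 in cKO iNK and 0.549, 0.480 and 0.708 in control iNK. Every iILC1 library was above every iNK library, and within iNK every cKO library was below every control library. The ratio of Itgb2 to Itgb1 was 1.49 ± 0.199 in cKO iILC1 (SD, n = 4) and 1.66 ± 0.3315 in control iILC1 (SD, n = 3), and 0.590 ± 0.0596 in cKO iNK (SD, n = 4) and 1.09 ± 0.0352 in control iNK (SD, n = 3). For both ratios the cKO and control libraries of iILC1 overlapped. The ratio of Itgal to Itgb2, the chains of LFA-1, was 0.692 ± 0.0463 in cKO iILC1 (SD, n = 4) and 0.623 ± 0.0281 in control iILC1 (SD, n = 3), and 0.758 ± 0.0751 in cKO iNK (SD, n = 4) and 0.659 ± 0.0259 in control iNK (SD, n = 3), with overlap between genotypes in both cell types.

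**Figure D4:**
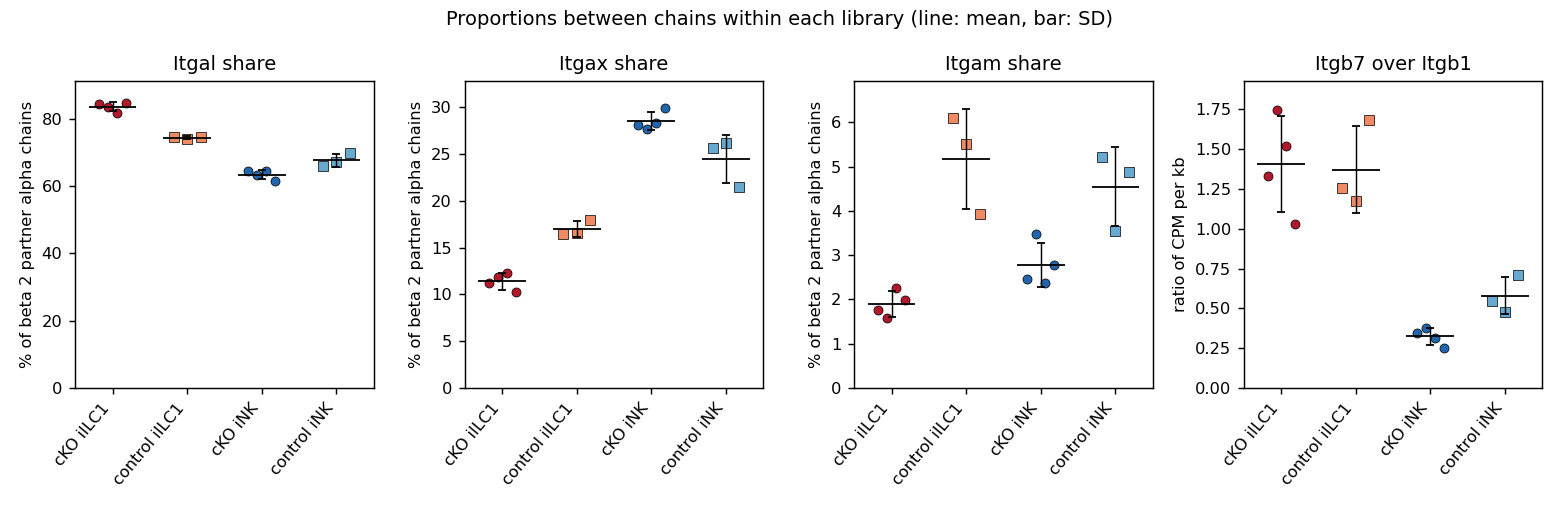
Proportions between integrin chains within each library, from CPM per kb: the share of Itgal, Itgax and Itgam among the alpha chains of Itgb2 (y axes in percent, from 0) and the ratio of Itgb7 to Itgb1; points are libraries, lines are means and bars are SD, for cKO iILC1 (n = 4), control iILC1 (n = 3), cKO iNK (n = 4) and control iNK (n = 3). The Itgal share averaged 83.6% in cKO iILC1, 74.4% in control iILC1, 63.4% in cKO iNK and 67.6% in control iNK.

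Itgam and Itgax lie next to each other on chromosome 7 of mm10, Itgam at 128062640 to 128128160 and Itgax at 128129547 to 128150656, both on the plus strand, with Itgal at 127296260 to 127335137 on the same strand. The neighbours had different patterns. In iNK the log2 fold change by genotype was −0.99 for Itgam and −0.06 (95% interval −0.60 to 0.48) for Itgax, and in iILC1 it was −1.41 for Itgam and −0.52 (95% interval −1.06 to 0.02) for Itgax. The difference between the neighbours was not tested.

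**Figure D5:**
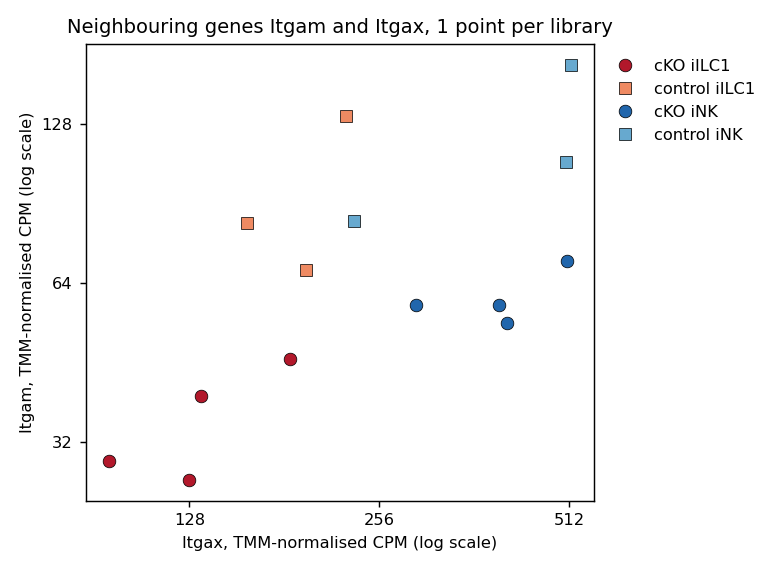
TMM-normalised CPM of Itgax (x axis, log scale) and Itgam (y axis, log scale), 1 point per library, for cKO iILC1 (n = 4), control iILC1 (n = 3), cKO iNK (n = 4) and control iNK (n = 3). The cKO libraries lie below the control libraries of the same cell type along the Itgam axis, and the iILC1 libraries lie left of the iNK libraries along the Itgax axis.

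Among 16 other integrin chains tested, none was called by genotype with edgeR in iNK (5 at an unadjusted p below 0.05, and 1, Itgb5, by DESeq2) or in iILC1 (1 at an unadjusted p below 0.05, 0 by DESeq2). In iNK, DESeq2 called 294 of 13907 genes. Unadjusted, 7.93% of all genes passed in iNK and 4.46% in iILC1. Between cell types, Itgb3, the beta chain of the platelet fibrinogen receptor and the vitronectin receptor, was higher in iILC1. It averaged 229 ± 58.05 CPM in cKO iILC1 and 71.3 ± 17.7 CPM in cKO iNK (SD, n = 4 each), a log2 fold change of 1.69 (adjusted p = 1.69e-05, SE 0.248, edgeR). In control mice it averaged 127 ± 37.3 CPM in iILC1 and 42.05 ± 17.4 CPM in iNK (SD, n = 3 each), a log2 fold change of 1.6 (adjusted p = 0.000767, SE 0.290). Its platelet partner Itga2b averaged 5.20 and 8.38 CPM in cKO and control iILC1 and 4.83 and 6.565 CPM in cKO and control iNK, and Pf4, a platelet chemokine, averaged at most 2.57 CPM in any group. The 8 megakaryocyte markers other than Itgb3 summed to 8.84 to 26.4 CPM in cKO iILC1 against 14.4 to 24.4 CPM in cKO iNK, and to 21.6 to 24.9 CPM in control iILC1 against 8.28 to 38.7 CPM in control iNK. Itgad was lower in cKO iILC1, at 40.9 ± 8.46 CPM, than in cKO iNK, at 81.8 ± 13.4 CPM (SD, n = 4 each; log2 fold change −1.0, SE 0.200, adjusted p = 0.00144). In control mice Itgad was not called, at 42.7 CPM in iILC1 and 62.1 CPM in iNK (log2 fold change −0.54, adjusted p = 0.185, edgeR).

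Genes that switch integrins on or link them to the cytoskeleton formed another list. Of 37 tested, edgeR called none by genotype in iNK (5 at an unadjusted p below 0.05, 0 by DESeq2) or in iILC1 (3 at an unadjusted p below 0.05, 0 by DESeq2). Among all genes, edgeR called 0.408% in iNK and 0.0482% in iILC1, and 7.93% and 4.46% passed unadjusted. Between cell types Cd226, an adhesion receptor that associates with LFA-1, and Cd81, a tetraspanin, were higher in iILC1 in both genotypes, and Rasgrp2, an activator of the integrin switch Rap1, was lower in both. Cd226 averaged 277 ± 98.4 CPM in cKO iILC1 and 75.6 ± 9.50 CPM in cKO iNK (SD, n = 4 each; log2 fold change 1.87, SE 0.224, adjusted p = 4.53e-07). Rasgrp2 averaged 43.1 ± 6.13 CPM in cKO iILC1 and 87.9 ± 13.3 CPM in cKO iNK (SD, n = 4 each; log2 fold change −1.03, SE 0.194, adjusted p = 0.000711). Counting both directions, 3 of 37 were called in cKO mice and 4 of 37 in control mice, against 3.41% and 4.11% of all genes. In control mice Cd47, an integrin-associated membrane protein, was lower in iILC1 (log2 fold change −0.96, SE 0.276, adjusted p = 0.0423). In cKO mice Cd47 was not called (log2 fold change −0.59, adjusted p = 0.29, edgeR).

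Ligands and other homing receptors held few calls by genotype. Of 17 integrin ligand genes tested, Thy1, whose product binds several integrins, was lower in cKO iNK, at 13.1 ± 2.18 CPM (SD, n = 4), than in control iNK, at 39.0 ± 8.21 CPM (SD, n = 3; log2 fold change −1.58, SE 0.285, adjusted p = 0.00314, edgeR), and the other 16 did not pass. None of the 17 was called by genotype in iILC1 with edgeR (2 at an unadjusted p below 0.05, 0 by DESeq2), where 4.46% of all genes passed unadjusted. By genotype, edgeR called 0.408% of all genes in iNK and 0.0482% in iILC1. Thy1 and Vcam1, the ligand of the Itga4 chain with Itgb1, were higher in cKO iILC1 than in cKO iNK. Vcam1 averaged 64.95 ± 19.2 CPM in cKO iILC1 and 29.2 ± 13.4 CPM in cKO iNK (SD, n = 4 each; log2 fold change 1.16, SE 0.287, adjusted p = 0.0175). In control mice neither was called with edgeR. Thy1 averaged 31.3 CPM in control iILC1 and 39.0 CPM in control iNK (log2 fold change −0.32, adjusted p = 0.544, edgeR), the opposite direction. Vcam1 averaged 51.1 CPM in control iILC1 and 31.0 CPM in control iNK (log2 fold change 0.72, adjusted p = 0.219, edgeR).

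Of 15 other adhesion receptors tested, edgeR called none by genotype in iNK (1 at an unadjusted p below 0.05, 0 by DESeq2) or in iILC1 (4 at an unadjusted p below 0.05, 0 by DESeq2). TGF-beta induces Itgae and Itga1 in lymphocytes, and of 22 genes of its pathway edgeR called none by genotype in iNK (2 at an unadjusted p below 0.05, 1 by DESeq2) or in iILC1 (2 at an unadjusted p below 0.05, 0 by DESeq2). For both lists, the unadjusted shares over all genes were 7.93% in iNK and 4.46% in iILC1. DESeq2 called 294 of 13907 genes in iNK and 46 of 10768 in iILC1. Between cell types 1 of the 22 was called in each genotype, against 3.41% of all genes in cKO mice and 4.11% in control mice. It was Eng, a co-receptor, which was higher in iILC1, at 27.5 ± 2.90 CPM in cKO iILC1 and 9.51 ± 3.76 CPM in cKO iNK (SD, n = 4 each; log2 fold change 1.53, SE 0.266, adjusted p = 0.000223).

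Markers of B and T cells moved between groups as well, and their part in the integrin levels was not tested. The 12 B lineage markers summed to 679 to 1082 CPM in cKO iNK and 417 to 630 CPM in control iNK. Of these 12, edgeR called 6 higher in cKO iNK, where it called 0.408% of all genes in either direction. The 10 T cell markers summed to 324 to 605 CPM in cKO iILC1 and 415 to 719.5 CPM in control iILC1, where 1 of 9 tested was called, lower in cKO iILC1. At an unadjusted p below 0.05, 5 of the 9 passed, against 4.46% of all genes. DESeq2 called 3, and 46 of the 10768 genes to which it gave an adjusted p. Log2 fold changes of the 9 were below 0 for 8 and above 0 for 1, with a median of −1.02, against 0.01 over all genes. The 10 erythroid markers summed to 124 to 664 CPM in cKO iNK and 58.45 to 94.2 CPM in control iNK. None of them was called there with edgeR (5 at an unadjusted p below 0.05, 1 by DESeq2), where 7.93% of all genes passed unadjusted. DESeq2 called 294 of 13907 genes in that comparison.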

How the data were processed

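The authors deposited 1 table of raw counts per Ensembl gene, not normalized, per the file headers; the submitters' processing notes name mm10, trimming with Trimmomatic 0.33, alignment with HISAT2 2.1.0 and featureCounts from Subread 1.6.5. Not given in the sources used here are the annotation release, strand setting and treatment of multiply mapped reads. Each of 14 columns matched 1 sample by title. A mouse symbol was found for 45143 of 46078 identifiers (97.97%).

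Genes were filtered with filterByExpr (minimum count 10, minimum total 15) and scaled by TMM. One fit with edgeR 4.0.16 (R 4.3.3; quasi-likelihood F test, robust dispersions, two-sided, 10 residual degrees of freedom, common biological coefficient of variation 30%) held all 14 libraries, with p-values adjusted by Benjamini-Hochberg over 26990 genes at a threshold of 0.05. The alternatives were DESeq2 1.42.0, other scalings and filters, fits of the 2 groups compared, a replicate block, the summed CPM of 1465 smell and pheromone receptor genes as a covariate, and leaving out libraries. Levels per kb used the table's exon lengths. The integrin chains and the 15 gene lists were chosen with earlier results of these data known. Genes outside the chains were named as the called genes of each list with the smallest p, up to 3, and the 3 genes most like a chain called by genotype among genes with at least 10 CPM in some group. Itga2b, Pf4, Itgb5, Cma1 and Klrg1 were named after their values were seen. Some called genes of the lists are not reported here.

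Every pair of libraries within a group differed beyond sampling noise (chi-square per degree of freedom 4.97 to 27.1). Intervals of 95% come from the model and cover the spread between libraries.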

Additional observations from a re-analysis of the deposited data

Results flagged for a closer look

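The share of Itgal among the alpha chains that pair with the Itgb2 chain moved in opposite directions with genotype in the 2 cell types. In iILC1 it was 9.16 percentage points higher in cKO than in control, at 83.6 ± 1.31% (SD, n = 4) against 74.4 ± 0.353% (SD, n = 3), and every cKO library lay above every control library. In iNK it was lower, by −4.18 percentage points, at 63.4 ± 1.39% in cKO (SD, n = 4) against 67.6 ± 1.99% in control (SD, n = 3), and every cKO library lay below every control library. The share of Itgax did the reverse, with a difference of −5.61 percentage points in iILC1 and 4.08 in iNK, again without overlap between the libraries of both genotypes. The difference between the cell types was not tested for either share. Shares of 1 sum move against each other by construction, so these are not independent. For the chains themselves the interaction was 0.56 (SE 0.382, adjusted p = 0.727, edgeR) for Itgal and −0.45 (SE 0.375, adjusted p = 0.758) for Itgax. Over 32 groups of 4 libraries, covering 10 chain levels and 6 proportions, 0 held a library far outside the others, where chance gives about 1 in 20.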

How the results depend on the processing

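The Itgam call in iILC1, the 4 chain calls between cell types in cKO mice and the direction of all called chains held under every setting that kept all libraries; the Itgax call in control mice did not. Counts were low for Itgae, at 72 to 277 per library over all groups, and for Itga1 in iNK, at 52 to 112 per library. The causes of the changes below were not tested.

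The number of chains called by genotype in iNK became 1 with upper quartile scaling, no filter on low counts, a filter at 5 CPM, a fit of the 2 groups only, the replicate block or DESeq2, and 2 with the background covariate; in iILC1 it became 3 with that covariate. Between cell types in control mice it became 2 with the 5 CPM filter or the 2 groups only, and 3 with the replicate block or DESeq2. Leaving out 1 library gave 0 to 1 chains in iNK, 0 to 1 in iILC1, 0 to 2 between cell types in control mice and 2 to 4 in cKO mice.

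All genes called by genotype in iNK numbered 214 with the 5 CPM filter, 244 with the 2 groups only, 189 with the block, 385 with the covariate and 294 with DESeq2. In iILC1 they numbered 30 with upper quartile scaling, 30 with no filter, 37 with the 5 CPM filter, 38 with the block, 57 with the covariate, 21 without the 2 libraries lowest on the first component and 46 with DESeq2. Between cell types they numbered 1741 with the 2 groups only, 2328 with the block and 2180 with DESeq2 in control mice, and 1677 with the covariate in cKO mice; for the interaction, 36 with the block, 34 with the covariate and 37 with DESeq2. Leaving out 1 library gave 62 to 85 genes in iNK, 4 (without control iILC1 replicate 3) to 28 (without cKO iILC1 replicate 4) in iILC1, 400 (without control iILC1 replicate 2) to 1787 (without control iNK replicate 3) between cell types in control mice and 9 to 31 for the interaction.

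It was not settled whether replicate numbers pair the samples, and the main fit did not pair them. Deviations of same-numbered libraries correlated at −0.092 to 0.389, and 6 of 14 libraries correlated best with their own number. With upper quartile scaling the median log2 fold change of all genes between cell types in control mice was 0.39, against 0.16 with TMM, and 39.2% of called genes were higher in iILC1, against 23%; for the interaction it was −0.20 against −0.03, with 40% higher against 28.6%.

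Some uncalled estimates changed sign, and not all of them were near 0 in the main fit. With upper quartile scaling these were Itgax in iNK 0.03, Itgb2 in iILC1 −0.04, and the interactions of Itga1 −0.13 and Itga2 −0.08. With no filter it was Itga2 in iILC1 0.02. With the 5 CPM filter they were Itgax in iNK 0.00, Itgb2 in iILC1 0.00, and the interactions of Itga1 −0.06 and Itga2 −0.02. With the replicate block they were Itgax in iNK 0.03, and Itga1 0.05 and Itga2 0.02 in iILC1. With the covariate they were Itga2 0.15 and Itgax 0.22 in iNK, Itgb2 in iILC1 −0.12, Itgal 0.14, Itgae −0.04 and Itgb2 0.26 between cell types in control mice, and the interactions of Itga1 −0.03 and Itga2 −0.31. Without the 2 libraries lowest on the first component they were Itga1 0.01, Itga2 0.17 and Itgax 0.12 in iNK, Itgb1 −0.02 and Itgb2 −0.16 in iILC1, Itgal −0.06 between cell types in cKO mice, and the interactions of Itga1 −0.20 and Itga2 −0.26.

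Leaving out 1 library moved estimates across 0 for Itga1 (−0.20 to 0.21 in iILC1, −0.25 to 0.07 in iNK, −0.13 to 0.30 interaction), Itga2 (−0.10 to 0.13, −0.42 to 0.19, −0.20 to 0.41), Itgae (−0.21 to 0.02 between cell types in cKO mice, −0.18 to 0.05 in iILC1), Itgal (−0.01 to 0.31 between cell types in cKO mice), Itgax (−0.34 to 0.13 in iNK), Itgb1 (−0.02 to 0.47 in iILC1, −0.41 to 0.10 interaction) and Itgb2 (−0.17 to 0.26 in iILC1). Without division by exon length the Itgb7 to Itgb1 ratio was 0.945, 0.921, 0.218 and 0.389 in cKO iILC1, control iILC1, cKO iNK and control iNK. The setting without robust dispersions was chosen after seeing the data.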
